A study of Mus musculus with 2 samples.

Results

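The genes described here encode enzymes that make and break down catecholamines: Th, Ddc, Dbh, Pnmt, Gch1, Qdpr and Maoa. Every transcript model whose gene name in the count tables was 1 of these 7 was taken, with its exons from the matching model annotation. That gave 83 models with 1597 reads in replicate 1 and 81 models with 930 reads in replicate 2, out of 88152 models with 810239 reads and 92074 models with 587861 reads. All 7 genes had reads in both libraries. They took 0.197% of the reads of replicate 1 (95% Clopper-Pearson interval 0.188 to 0.207) and 0.158% of those of replicate 2 (0.148 to 0.169).

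The samples were adrenal glands of wild-type C57BL/6J mice, a single group with 2 biological replicates and no treatment. The labels describe the tissue as female, but the sex field reads not collected and the age is unknown. The replicates have different biosample identifiers and the same donor identifier, which the labels also tie to the strain. Nothing says how many animals each library holds, so differences between the libraries may be technical. Long-read RNA-seq reads a whole cDNA molecule, so that a single read counts as 1 molecule whatever its length and shows which exons were joined. CPM, counts scaled to a common library size, can therefore be set side by side between genes without division by length. The libraries favoured different lengths, however, and replicate 2 held longer transcripts. With no second group, a test of replicate 2 against replicate 1 compares these libraries and not conditions.

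Catecholamines are made from tyrosine in the chromaffin cells of the adrenal medulla. Th, tyrosine hydroxylase, makes DOPA in the step that limits the rate, Ddc removes the carboxyl group to give dopamine, Dbh hydroxylates dopamine to noradrenaline inside the granule, and Pnmt adds a methyl group to give adrenaline. Th needs the cofactor tetrahydrobiopterin (BH4), whose synthesis begins with Gch1, GTP cyclohydrolase, and which Qdpr, dihydropteridine reductase, returns to its reduced form after use. Maoa, a monoamine oxidase of the outer mitochondrial membrane, breaks the amines down.

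The stretches that carry the splicing results are shown first, on the strand of the gene and in the spliced order of the annotated transcripts of GENCODE M21. In the Th stretch around exon 6 the capitals mark exon 6 (chr7:142896029-142896079, mm10, minus strand). It is flanked by the last bases of exon 5 and the first of exon 7, and introns 5 and 6 lie at the 2 changes of case. In the Th stretch across exons 8 and 9 the capitals mark the first bases of exon 9 (chr7:142895089-142895158, minus strand), so that intron 8 lies at the change of case. In the Dbh stretch the capitals mark exon 8 (chr2:27177714-27177752, plus strand), whose downstream end varied. In the Pnmt stretch (chr11:98386632-98386721, plus strand), which begins at the start codon, the capitals mark what remained of it when an unannotated upstream exon was joined inside exon 1.
Th exons 5 to 7: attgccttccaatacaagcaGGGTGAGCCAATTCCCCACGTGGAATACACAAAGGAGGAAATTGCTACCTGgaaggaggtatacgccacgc
Th exons 8 and 9: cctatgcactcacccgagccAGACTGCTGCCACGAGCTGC
Dbh exons 7 to 9: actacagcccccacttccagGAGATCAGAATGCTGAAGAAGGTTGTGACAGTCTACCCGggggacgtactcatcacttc
Pnmt start of the coding part: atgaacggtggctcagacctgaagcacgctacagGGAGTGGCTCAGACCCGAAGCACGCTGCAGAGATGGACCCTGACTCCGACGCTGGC

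Promoter windows are shown for Th, the gene with the most reads, and for Ddc, which has a proximal and a distal start site in the table. They are the 250 bases before the start in the RefSeq table (GRCm38.p6). Both strands were searched for TGACGTCA (the cyclic AMP response element), TATAAA and CCAAT, and capitals mark the matches. Of all 32851 windows of that length in the table, 1.55% held the first, 12.4% the second and 33.8% the third. Of the 7 genes, 6 were in the table, with 7 windows; Pnmt was the gene without an entry.
Th promoter, chr7:142899996-142900245, minus strand: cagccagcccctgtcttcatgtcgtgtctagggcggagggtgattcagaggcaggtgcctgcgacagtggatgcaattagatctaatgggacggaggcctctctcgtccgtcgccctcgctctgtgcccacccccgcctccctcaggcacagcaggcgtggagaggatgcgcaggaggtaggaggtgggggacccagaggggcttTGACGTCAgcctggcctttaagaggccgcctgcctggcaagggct
Ddc proximal promoter, chr11:11890409-11890658, minus strand: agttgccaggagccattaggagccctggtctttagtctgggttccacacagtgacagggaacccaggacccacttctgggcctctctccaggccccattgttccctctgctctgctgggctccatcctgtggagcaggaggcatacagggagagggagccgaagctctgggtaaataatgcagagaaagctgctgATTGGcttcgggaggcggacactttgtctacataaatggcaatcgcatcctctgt
Ddc distal promoter, chr11:11898145-11898394, minus strand: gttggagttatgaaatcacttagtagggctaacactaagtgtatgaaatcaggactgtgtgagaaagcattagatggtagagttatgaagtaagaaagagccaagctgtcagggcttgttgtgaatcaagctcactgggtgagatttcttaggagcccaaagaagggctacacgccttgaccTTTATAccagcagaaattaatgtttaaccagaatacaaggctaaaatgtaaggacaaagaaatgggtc
Th was the member with the cyclic AMP response element, which began 45 bases before the RefSeq start. The proximal window of Ddc held CCAAT on the other strand, 55 bases before its start, and the distal window held TATAAA on the other strand, 68 bases before. CCAAT lay 150 bases before the RefSeq start in Dbh and 70 bases before it in Gch1. In Qdpr it lay 244 and 65 bases before the start, both times on the other strand. Gch1 also had TATAAA on the other strand at 188 bases. The Dbh window (chr2:27165257-27165506) lies within exon 1 of the annotated Dbh-201 (27165233-27165866), so its match is inside that transcript and not upstream of it. The Maoa window had none of these letters. A match is a description of the letters and not evidence of binding.

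The labelled tissue was checked against marker genes. All 7 chromaffin markers and all 6 cortex markers had reads in at least 1 library. Chromaffin markers summed to 6630 CPM in replicate 1 and 9045 in replicate 2. Chgb went from 2001 to 5076 CPM, while Chga went from 2544 to 2463 and Scg2 from 2017 to 1397. The genes listed as markers of sympathetic neurons, a related cell type, summed to 1269 and 189 CPM. Npy, a short transcript of 566 nt, made up 890 of the 1028 neuron marker reads of replicate 1. Slc18a2 went the other way at a log2 ratio of 1.75. It is also in the list of amine uptake and storage below, so the neuron list is not specific to neurons. Macrophage markers summed to 970 and 170 CPM and endothelial markers to 185 and 600 CPM. Lyz2 made up 726 of the 786 macrophage marker reads of replicate 1, and Adgre1 went the other way at a log2 ratio of 1.36. With the length trend removed, 2 neuron markers were higher in replicate 2 and 1 in replicate 1. The kidney markers Umod, Slc34a1 and Nphs1 had 0 reads in both libraries, and the liver markers Apoa1 and Ttr had 1 read each, in replicate 1. In tissue RNA, fewer cells of a type and less RNA per cell cannot be told apart. The part of these marker shifts in the results was not tested.

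Th led the pathway enzymes of synthesis by mean level. It had 980 reads in replicate 1, or 1210 CPM, and 310 in replicate 2, or 527 CPM, with a mean of 868 ± 482 CPM (SD, n = 2). It stood at rank 77 of all genes in replicate 1 and rank 243 in replicate 2. Ddc, which acts next, had 13 reads (16.0 CPM) and 7 reads (11.9 CPM), a mean of 13.98 ± 2.93 CPM. Ddc was the lowest of the 7 in both libraries. Dbh had 38 reads (46.9 CPM) and 204 reads (347 CPM), a mean of 197 ± 212 CPM, and Pnmt 318 reads (392 CPM) and 48 reads (81.7 CPM), a mean of 237 ± 220 CPM. These last members of the synthesis pathway differed between the libraries in opposite directions, Dbh being high in replicate 2 and Pnmt in replicate 1.

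The cofactor enzymes differed in the same crossed way. Gch1 had 69 reads (85.2 CPM) in replicate 1 and 315 reads (536 CPM) in replicate 2, a mean of 311 ± 319 CPM, and in replicate 2 its Poisson interval overlapped that of Th. Qdpr had 146 reads (180 CPM) and 15 reads (25.5 CPM), a mean of 103 ± 109 CPM. Maoa, the breakdown enzyme, had 33 reads (40.7 CPM) and 31 reads (52.7 CPM), a mean of 46.7 ± 8.49 CPM. Maoa and Ddc were the members whose Poisson intervals overlapped between the libraries.

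**Figure D1:**
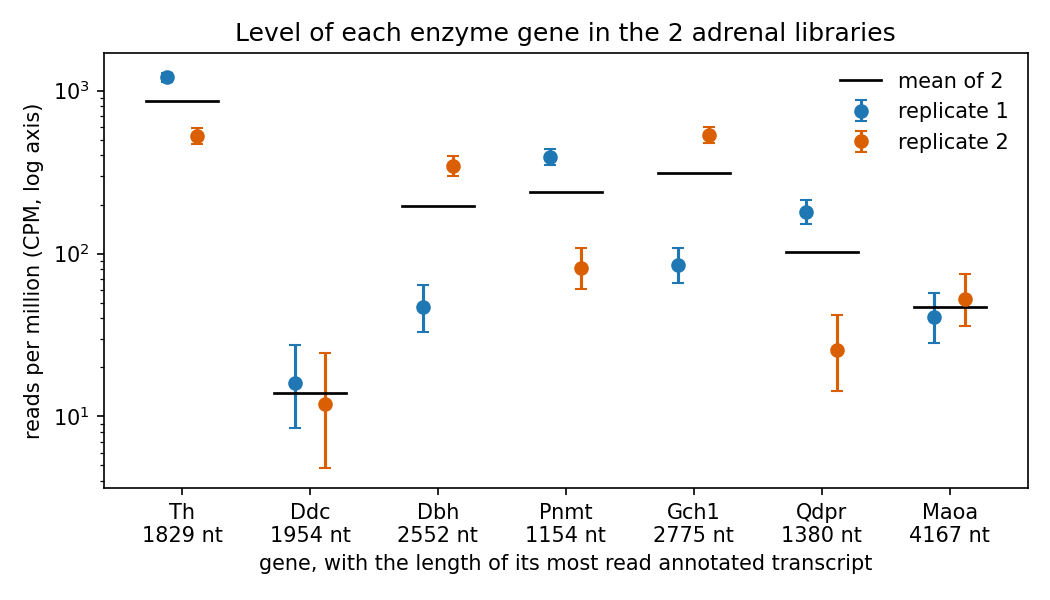
CPM of each enzyme gene on a log axis, with 1 point per library, exact Poisson intervals as bars and the mean of 2 libraries as a black line. Th, Pnmt and Qdpr lie higher in replicate 1, Dbh and Gch1 higher in replicate 2, and the points of Ddc and Maoa overlap.

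The order of the levels therefore depended on the library. In replicate 1 it ran from Th through Pnmt, Qdpr, Gch1, Dbh and Maoa down to Ddc, and Dbh and Maoa were the neighbours whose Poisson intervals overlapped. In replicate 2 it ran from Gch1 through Th, Dbh, Pnmt, Maoa and Qdpr to Ddc. There the intervals of Gch1 and Th overlapped, as did those of each neighbouring pair from Pnmt to Ddc. In both libraries Th stood above Dbh and Pnmt, and every other member stood above Ddc.

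Read ratios put these orders in numbers. For each Th read there were 0.0133 Ddc reads in replicate 1 (95% interval 0.00704 to 0.0228) and 0.0226 in replicate 2 (0.00900 to 0.0471), values whose intervals overlapped. For Dbh the same ratio was 0.0388 (0.0273 to 0.0536) in replicate 1 and 0.658 (0.549 to 0.788) in replicate 2. There were 8.37 Pnmt reads per Dbh read (5.97 to 12.05) in the first library and 0.235 (0.168 to 0.324) in the second. The ratio of Qdpr to Gch1, which recycle and begin the synthesis of BH4, was 2.12 (1.58 to 2.86) and 0.0476 (0.0263 to 0.0798). With the length trend removed, the log2 difference between the libraries was -1.11 for Pnmt to Dbh and -1.57 for Qdpr to Gch1, and 2.04 for Dbh to Th. For Ddc to Th it was 0.40. The Ddc to Th ratio was the one of these 4 whose intervals overlapped, and it rests on 13 and 7 Ddc reads.

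Replicate 2 was tested against replicate 1 by an exact binomial test (two-sided) of the reads of each gene, with TMM scaling and Benjamini-Hochberg adjustment over 9809 genes. Of the 7 members 5 were called, against 66.2% of all genes tested. Of the 7, 2 were called higher in replicate 2, against 30.6% of all genes tested, and 3 in replicate 1, against 35.6%. A share of 5 in 7 is near that background. Dbh was 5.34-fold higher in replicate 2 (95% interval 3.76 to 7.76; adjusted p = 1.33e-27, exact binomial test) and Gch1 4.54-fold higher (3.49 to 5.98; adjusted p = 2.00e-37, same test). Higher in replicate 1 were Th by 3.18-fold (2.80 to 3.62), Pnmt by 6.66-fold (4.91 to 9.22) and Qdpr by 9.79-fold (5.74 to 17.9), with adjusted p-values of 1.03e-80, 3.88e-49 and 1.58e-27 in the exact binomial test. Ddc differed by 1.87-fold (0.693 to 5.53) and Maoa by 1.07-fold (0.636 to 1.81), and the exact binomial test called neither (adjusted p = 0.238 and 0.844). Scaling by total counts moved the median log2 ratio of all genes from -0.01 to 0.46 and gave 3909 higher against 2972 lower genes, instead of 3004 against 3493. It left the same 5 members called, while the sign of Maoa turned to 0.37.

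Transcript length split the 5 called members, although not in strict order. The members higher in replicate 1 had annotated transcripts of 1154 nt (Pnmt), 1380 nt (Qdpr) and 1829 nt (Th), and those higher in replicate 2 had 2552 nt (Dbh) and 2775 nt (Gch1). The lowess trend of the log2 ratio on length was -3.46 at the length of Pnmt and 1.36 at that of Maoa, 4167 nt. With the expected share of each gene set from that trend, 4 of 7 members were called, against 42.4% of 9173 genes. Of the 7, 3 were called higher in replicate 2 (21.3% of all genes tested) and 1 in replicate 1 (21.1%). Dbh kept a log2 difference of 1.84 and Gch1 of 1.21 above the trend (adjusted p = 2.12e-15 and 6.48e-11, exact binomial test). Th lay 0.19 below the trend and Qdpr 0.36 below it, and neither passed (adjusted p = 0.0815 and 0.542, exact binomial test).

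The adjustment turned the direction of Pnmt. It lay 0.73 above the trend in replicate 2 (adjusted p = 0.00732, exact binomial test), although its raw count was lower there. Maoa lay at -1.46 relative to the trend (adjusted p = 0.00029, exact binomial test), so that this long transcript had fewer reads in replicate 2 than others of its length. Ddc was at 0.21 and did not pass (adjusted p = 0.904, exact binomial test).

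**Figure D2:**
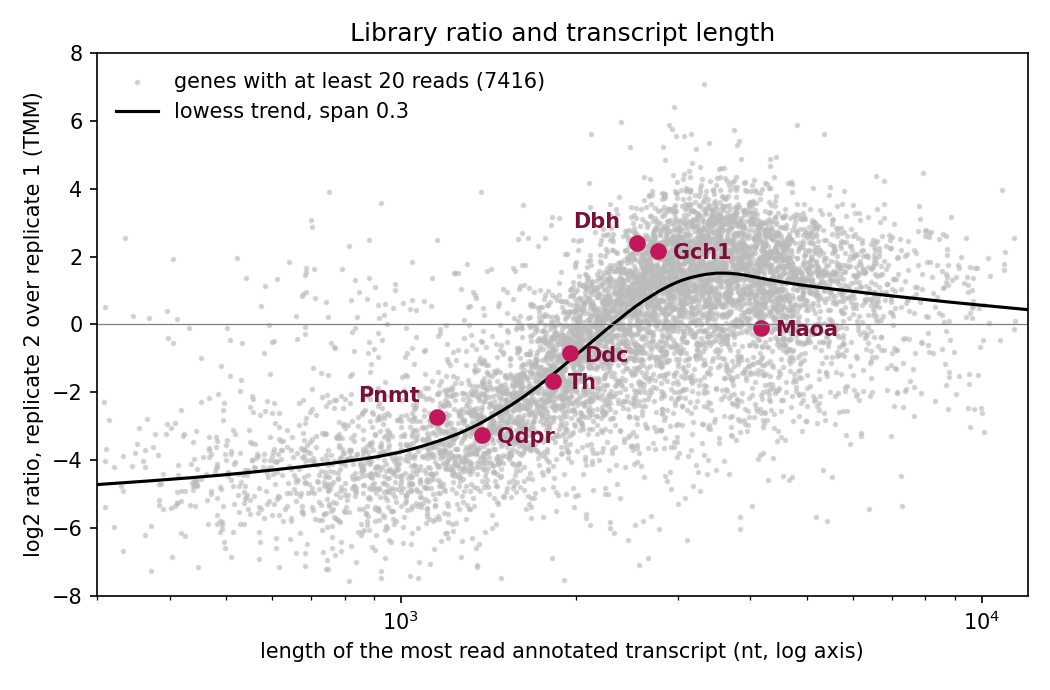
Log2 ratio of replicate 2 over replicate 1 (TMM) against the length of the most read annotated transcript, on a log axis. Grey points are genes with at least 20 reads, the black line is the lowess trend and the labelled points are the 7 enzymes. Th, Ddc and Qdpr lie on or near the line, Dbh, Gch1 and Pnmt above it and Maoa below it.

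Splicing was then described model by model. In the deposited classes, annotated models took 88.4% of the members' reads in replicate 1 and 81.2% in replicate 2, against 78.7% and 74.1% over all annotated genes. Known splice sites in a new combination took 1.69% and 10.3% of the members' reads, against 3.05% and 6.72% over all genes, and 92 of the 96 such reads of replicate 2 were of Th. In each member a single annotated transcript led: Th-201, Ddc-202, Dbh-201, Pnmt-201, Gch1-201, Qdpr-201 and Maoa-201. In replicate 1 Ddc-206 had as many reads as Ddc-202, 2 each.

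The share of the leading transcript was compared between the libraries for the 6 members with at least 10 reads in each. Of these, 3 were called by Fisher's exact test, against 28.7% of 4733 genes. In 2 of the 6 the call was of a lower share in replicate 2, against 13.1% of the same 4733 genes. Th-201 held 885 of 980 reads (90.3%) in replicate 1 and 185 of 310 (59.7%) in replicate 2 (adjusted p = 2.93e-29, Fisher's exact test). Qdpr-201 held 138 of 146 (94.5%) and 9 of 15 (60.0%; adjusted p = 0.00309, Fisher's exact test). Dbh-201 went the other way, from 22 of 38 reads (57.9%) to 175 of 204 (85.8%; adjusted p = 0.00147, Fisher's exact test). Pnmt-201 held 84.3% and 91.7%, Gch1-201 94.2% and 97.5% and Maoa-201 90.9% and 90.3%, and none of these passed (adjusted p = 0.456, 0.418 and 1, Fisher's exact test).

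**Figure D3:**
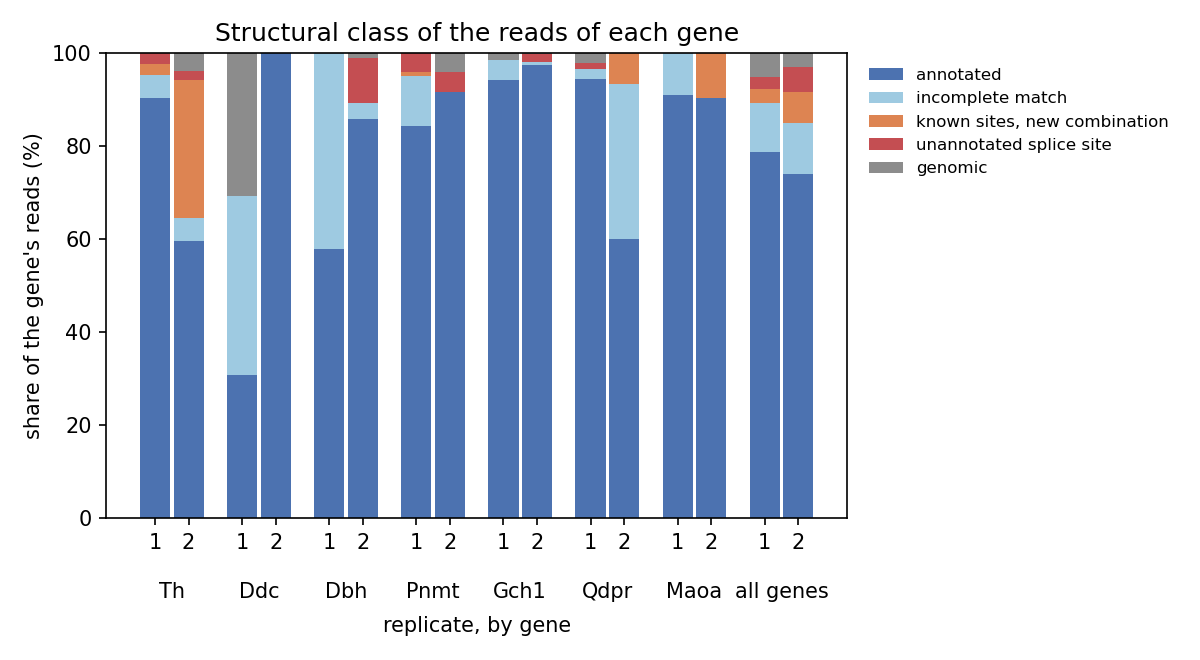
Share of the reads of each enzyme gene in the 5 deposited model classes, by library, with all annotated genes at the right. The new combinations of known sites fill 29.7% of the Th bar of replicate 2 and 2.45% of that of replicate 1. Ddc rests on 13 and 7 reads.

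Th lies on the minus strand of chromosome 7 (ENSMUSG00000000214.11, 142892752 to 142931128), and Th-201 has 13 exons. The unannotated Th reads of replicate 2 mostly kept introns. A read was counted as keeping an intron when an exon of its model spanned the whole intron of Th-201. Intron 5, of 331 nt, was kept in 14 of 944 reads (1.48%, interval 0.813 to 2.48) in replicate 1 and in 95 of 294 (32.3%, 27.0 to 38.0) in replicate 2. Intron 6, of 360 nt, was kept in 8 of 945 reads (0.847%) and in 84 of 294 (28.6%). Intron 8, of 158 nt, was kept in 15 of 963 (1.56%) and in 64 of 297 (21.5%). Introns 5, 6 and 8 were the 3 most retained Th introns in both libraries. In replicate 1 this order is narrow, with 8 reads that kept intron 6 against 7 each for introns 2 and 10. Introns 5 and 6 are those on either side of exon 6 in the stretch shown above.

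Across all genes 33150 introns were tested for retention by Fisher's exact test, and 1.99% were called, 1.83% with more retention in replicate 2 and 0.166% with more in replicate 1. In Th 8 of 12 introns were called, all with more retention in replicate 2. The adjusted p-values (Fisher's exact test) were 3.73e-46 for intron 5, 8.88e-44 for intron 6 and 1.16e-25 for intron 8. The other 5 called were introns 2, 3, 7, 9 and 12, kept in 6.53%, 1.71%, 5.07%, 5.41% and 2.73% of reads in replicate 2 and in at most 0.741% in replicate 1. Introns 1, 4, 10 and 11 were not called. Over all tested introns the mean share kept was 0.615% in replicate 1 and 1.69% in replicate 2. No read kept the intron at 89.1% of them in replicate 1 and 79.7% in replicate 2, and the 95th percentile was 3.33% and 9.09%. Intron 5 lay above 92.4% of all introns in replicate 1 and above 98.8% in replicate 2. Intron 6 lay above 91.3% and 98.5%, and intron 8 above 92.5% and 97.9%. In replicate 1 introns 5, 6 and 8 were thus below the 95th percentile.

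**Figure D4:**
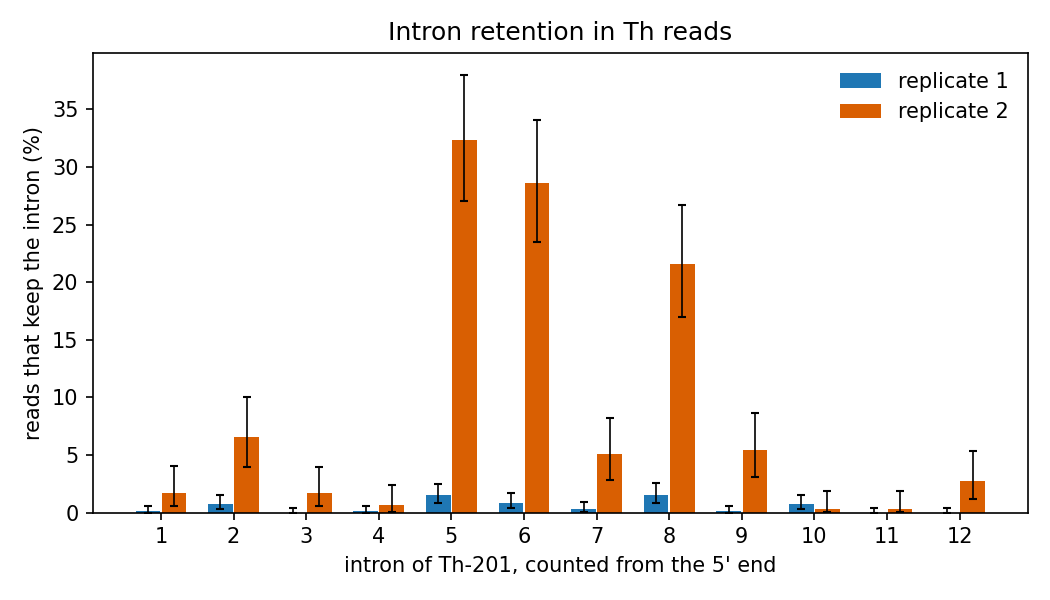
Share of Th reads that kept each of the 12 introns of Th-201, by library, with 95% Clopper-Pearson intervals. Introns 5, 6 and 8 reach 32.3%, 28.6% and 21.5% in replicate 2, and their intervals reach at most 2.56% in replicate 1.

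The retained introns occurred together on the same molecules. In replicate 2, 84 of 294 reads that covered both kept introns 5 and 6, 11 kept intron 5 alone and 0 kept intron 6 alone. In replicate 1 these counts were 8, 6 and 0 of 942. Every one of these reads that kept intron 6 had thus kept intron 5 as well. Intron 8 was kept in 57 of 95 reads (60.0%, interval 49.4 to 69.9) of replicate 2 that kept intron 5, and in 6 of 199 (3.02%, 1.11 to 6.45) that spliced it. In replicate 1 the counts were 5 of 14 and 10 of 929 (1.08%). In all, 38 of 976 spliced Th reads (3.89%) kept at least 1 intron in replicate 1 and 104 of 298 (34.9%, 29.5 to 40.6) in replicate 2.

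These molecules were spread over many models. New combinations of known sites in replicate 2 numbered 20 Th models with 92 reads. In replicate 2 the most read unannotated model kept introns 5 and 6 with 33 reads, and it ran 3030 nt past the annotated end. A model that kept introns 5, 6 and 8 had 20 reads and ended within 46 nt of the annotated end. Models that kept introns 2, 5, 6 and 8, and 5, 6, 8 and 9, had 5 reads each. In replicate 1 the most read model that kept an intron and reached the annotated end kept intron 5 alone, with 5 reads.

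Other Th models were incomplete or unspliced. In replicate 1 a model that began at exon 8 had 12 reads. In the same library a model of 7 reads kept intron 10 and ended 1680 nt short of the annotated end, and a model of 6 reads kept intron 2 and ended 4350 nt short of it. An unspliced model of 5 reads in replicate 2 covered introns 1 and 2 and ended at that same base, 142897102. That base is the first of exon 3, so both models end at the edge of intron 2. They held 6 of the 7 reads counted as keeping intron 2 in replicate 1 and 5 of the 19 in replicate 2. An unspliced model of 7 reads in replicate 2 covered the last exon and ran to the same position, 3030 nt past the annotated end, as the 33-read model.

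**Figure D5:**
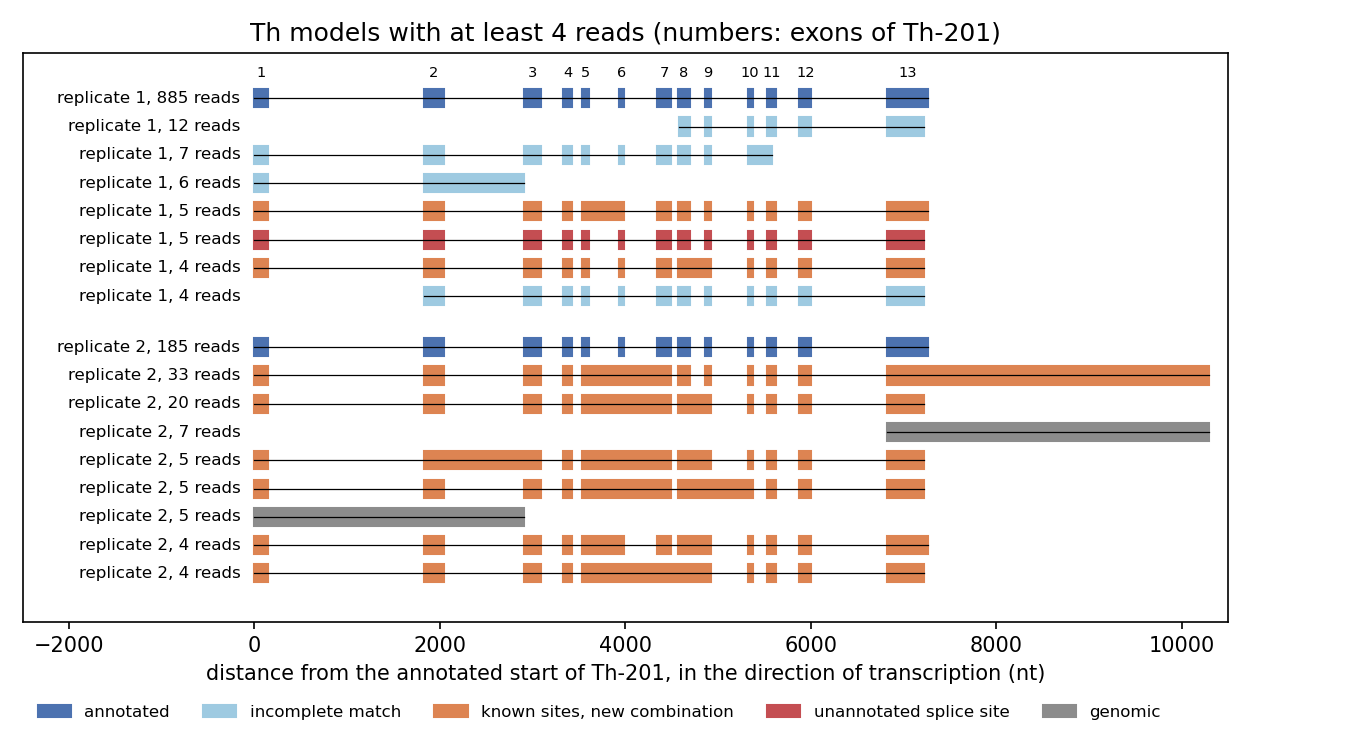
Exons (boxes) of the Th models with at least 4 reads, by distance in nt from the annotated start of Th-201 in the direction of transcription, coloured by class, with the exons of Th-201 numbered above. Most spliced unannotated models of replicate 2 join boxes 5, 6 and 7, and many also boxes 8 and 9, into a single exon, and 1 model of 33 reads extends past the annotated end.

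Models that keep introns are longer. Th-201 has 1829 nt, and 2520 nt when introns 5 and 6 are kept. The library trend rose by 1.96 on the log2 scale between those lengths. In reads covering both, intron 6 was kept only together with intron 5, and the log2 odds ratio of keeping intron 6 was 5.55. With intron 5 alone kept the trend rose by 1.04, and with intron 8 alone by 0.52. The log2 odds ratios of introns 5 and 8, 4.99 and 4.12, also count reads that kept further introns. With introns 5, 6 and 8 all kept the trend rose by 2.28. The most read unannotated model of replicate 2 had 5550 nt. The part of read length in the retention difference was not tested, since the end of an unannotated model is not that of each of its reads.

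Reads of Th also reached beyond the gene at its downstream end. Exon 12 was joined to an exon past the annotated end in 5 reads of replicate 1, in 5 models that reached up to 48472 nt past it, and in 2 reads of replicate 2, up to 18144 nt past it. A long noncoding gene on the same strand, Gm39117, lies in that stretch. A donor 4 nt inside intron 10 was used in 5 reads of replicate 1 and 0 of replicate 2. Exon 2 was joined to an exon upstream of the annotated exon 1 in 3 reads of replicate 1 and 0 of replicate 2. At the upstream end, 937 and 282 spliced reads began in the first exon of Th-201, and 0 in the distal first exon of Th-202 and Th-206.

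Ddc spans 11814101 to 11898144 on the minus strand of chromosome 11 (ENSMUSG00000020182.16), and Ddc-202 has 15 exons. All 7 reads of replicate 2 were Ddc-202 over its whole junction chain. In replicate 1, 2 of 13 reads were Ddc-202, 2 were the short Ddc-206 and 4 lay unspliced in the gene. The spliced reads that had a first exon of Ddc-202 numbered 3 and 7, and those with the distal first exons of Ddc-201 or Ddc-210 numbered 0 and 0. The proximal window shown above lies before the first exon of Ddc-202. In replicate 1, 2 spliced reads also began in the first exon of Ddc-206 and 1 in that of Ddc-207, which lie downstream of it. In replicate 2, 0 of 7 reads allows a share of up to 42.9% for the distal exons, and the 3 reads of replicate 1 set no useful limit.

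Dbh lies on the plus strand of chromosome 2 (ENSMUSG00000000889.8, 27165233 to 27183200), and Dbh-201 has 12 exons. The first junction was present in 22 of 34 spliced reads (64.7%, interval 46.5 to 80.3) in replicate 1 and in 199 of 202 (98.5%, 95.7 to 99.7) in replicate 2. Of the 38 reads of replicate 1, 31.6% were incomplete matches that lacked the upstream end, against 1.47% in replicate 2. Every read of replicate 1 outside Dbh-201 was an incomplete match, 42.1% of the reads, and none had a new combination of sites or a new site.

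Exon 8 of Dbh had later donors in replicate 2. The annotated exon, shown above, has 39 nt. In 7 reads of replicate 2 it was extended by 90 nt to 129 nt, and in 2 reads by 85 nt to 124 nt. These made up 9 of 199 reads (4.52%, interval 2.09 to 8.41) in replicate 2 and 0 of 28 in replicate 1, which allows up to 10.7%, so a difference was not detectable at this depth. The extension of 90 nt keeps the number of bases a multiple of 3, and that of 85 nt does not. The most read model with the longer exon had 6 reads. Over the whole gene 21 of 202 spliced reads of replicate 2 (10.4%) had an unannotated splice site, and in 10 of the 21 every such site lay within 10 nt of an annotated one.

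Pnmt is a short gene of 3 exons on the plus strand of chromosome 11 (ENSMUSG00000038216.7, 98386450 to 98388181). In replicate 1, 10 of 318 reads (3.14%, interval 1.52 to 5.71) began in an unannotated exon of 81 nt at chr11:98386197-98386277, which starts 253 nt upstream of the annotated gene. No read of replicate 2 did, and 0 of 48 allows up to 6.25%. In 9 of the 10 reads this exon was joined to base 98386666 of exon 1, and in the other to base 98386648. Both acceptors follow an AG. The first lies 34 nt past the first base of the annotated coding part, so that the annotated start codon was spliced out, as the capitals in the stretch above show. The next ATG in the same frame is codon 23, at 98386698. The last 25 bases of the part spliced out match the stretch 30 nt downstream at 23 of 25 bases, so that the alignment of a read across this repeat could be uncertain.

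Other Pnmt models were minor. An unspliced model of the last exon had 21 reads in replicate 1, a model that kept intron 2 had 7, and a model with the last 2 exons had 6. Exon 2 was skipped in 3 reads of replicate 1 and 0 of replicate 2. An acceptor 32 nt upstream of that of exon 3 was used in 2 reads and 1 read. Intron 2 was kept in 7 of 292 reads (2.40%) and 2 of 46 (4.35%), which Fisher's exact test did not call (adjusted p = 1).

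Of the cofactor genes, Gch1 was the most uniform. Gch1 lies on the minus strand of chromosome 14 (ENSMUSG00000037580.10, 47153895 to 47189413) and has 6 exons in Gch1-201. None of its 5 introns was kept in any of 66 and 314 spliced reads, and the first junction was present in 98.5% and 98.4% of them. Its most read unannotated spliced model, with 2 reads in replicate 2, used a donor 148 nt upstream of that of exon 1.

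Qdpr lies on the minus strand of chromosome 5 (ENSMUSG00000015806.12, 45434021 to 45450236) and has 7 exons in Qdpr-201. Its intron 1 was kept in 0 of 140 reads of replicate 1 and in 4 of 13 of replicate 2 (30.8%, interval 9.09 to 61.4; adjusted p = 0.00285, Fisher's exact test). No other Qdpr intron was kept in either library. The most read unannotated models of Qdpr with a new junction had 1 read each.

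Maoa lies on the plus strand of the X chromosome (ENSMUSG00000025037.6, 16619698 to 16687818), and Maoa-201 has 15 exons over 68121 nt. The first junction was present in 31 of 33 spliced reads (93.9%) of replicate 1 and 31 of 31 of replicate 2. Intron 4 was kept in 1 read and intron 11 in 2 reads of replicate 2, and none of its 14 introns was called by Fisher's exact test.

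Genes around the pathway were read from 6 lists. Of the other BH4 enzymes, Pts, the synthase that acts after Gch1, had 68 reads in replicate 1 and 9 in replicate 2, with a log2 ratio of -2.86. Spr, sepiapterin reductase, had 14 reads and 1 read, at -3.28. The pterin dehydratase genes Pcbd1 and Pcbd2 had 19 and 0 reads and 69 and 3 reads. All of these were called higher in replicate 1 by the exact binomial test, against 35.6% of all genes tested. With the length trend removed none of them was called, against 42.4% of all genes called in either direction. Tph1 and Tph2, the BH4-dependent hydroxylases that start serotonin synthesis, had 0 reads in both libraries.

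Of 7 tested genes of breakdown and conjugation, the exact binomial test called 2 up in replicate 2 and 4 up in replicate 1, where 30.6% and 35.6% of all genes were, and the median log2 ratio was -2.57. The same shares of all genes apply to the lists that follow. Aldh2, a mitochondrial aldehyde dehydrogenase, had the most reads, 527 and 898. Aldh3a2 was highest at 3.39 and Akr1b3 lowest at -3.36. Of 5 tested genes of amine uptake, storage and Dbh supply, 3 were called up in replicate 2 and 0 in replicate 1, and the median was positive. Cyb561, the granule cytochrome that returns electrons to ascorbate for Dbh, had 210 and 706 reads and a log2 ratio of 1.74. Slc18a2, a vesicular monoamine transporter, was highest at 1.75, and Slc18a1, the related transporter of endocrine cells, lowest at 0.63, which did not pass.

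Of 4 tested genes that supply the methyl donor for Pnmt, the exact binomial test called 1 up in replicate 2 and 3 up in replicate 1, and the median was -0.98. Mat2a, a methionine adenosyltransferase subunit gene, had the most reads, 382 and 244, Mat2b was lowest at -1.72, Ahcy highest at 1.03, and Mat1a had 0 reads in both. Of 8 tested regulators known to act at the promoters of these genes, 1 was called up in replicate 2 and 2 in replicate 1, and the median was -1.14. Gata2 had the most reads, 17 and 57, and the highest log2 ratio, 1.71, and Hand2 the lowest, -4.15, with 26 reads and 1 read. With the length trend removed, the shares of all genes called up were 21.3% in replicate 2 and 21.1% in replicate 1. The breakdown list then had 1 gene higher in replicate 2 and 2 in replicate 1, and Aldh2 turned to -0.70. The uptake and storage list then had 1 and 0, and the methyl donor and regulator lists 0 and 2 each.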

How the data were processed

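Long-read RNA-seq of adrenal gland gave 2 libraries. The authors deposited whole-number read counts for every transcript model, without normalization, per the file headers. They made the models with TALON, which assigns reads to annotated transcripts or new models, separately for both libraries, with GENCODE M21 on mm10. The aligner, read correction, cDNA preparation and platform were not given in the sources used here. The classes are those of the deposited tables: annotated, incomplete match, new combination of known sites, unannotated splice site and genomic (unspliced).

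A gene's level is the sum over its models. The depth was 810239 and 587861 reads, and a count of 0 allows up to 3 reads, or 3.70 and 5.10 CPM. Intervals are 95% Clopper-Pearson intervals for shares and exact Poisson intervals for counts. They cover counting error only, since amplified reads are not independent molecules.

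With 1 library on each side no dispersion can be estimated. The library test was therefore the exact two-sided binomial test for genes with at least 10 reads over both, with TMM-scaled library sizes (edgeR 4.0.16), a pseudocount of 0.5 reads in log2 ratios and Benjamini-Hochberg adjustment at 0.05 over all genes. The length trend was a lowess curve with a span of 0.3 over genes with at least 20 reads (statsmodels 0.14.6). Isoform use was compared by Fisher's exact test of the most read model against all others, where each library had at least 10 reads and the gene at least 2 models. Spliced models were matched between libraries by their junctions. Intron retention was compared by the same test for introns of the most read annotated transcript with at least 10 reads in each library (scipy 1.17.1). The tests were checked on simulated data. The retention test, its alternatives and the length comparison beside it were chosen after the Th models had been seen.

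The 7 genes, the gene lists and the markers were chosen with earlier results of these data known. Named are all 7 genes, their models with at least 5 reads, the most read unannotated spliced model of each gene and library, and of each list the genes with the most reads, with 0 reads, and with the lowest and highest log2 ratio. Results for some genes of the cofactor and hydroxylase lists are not reported here, so those lists are given by gene without counts. Alternatives were other scalings, including the size factors of DESeq2 1.42.0, other count minimums, removal of the length trend and subsets of the model classes. Sequences came from GENCODE M21 transcripts and the RefSeq promoter table. No genome sequence or protein table was used here, so intron and amino acid sequences are not shown.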

Additional observations from a re-analysis of the deposited data

Results flagged for a closer look

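Reads on the strand opposite to the gene lie outside the counts above. Within Ddc there were 7 such reads in replicate 1 and 0 in replicate 2, and 7 is above what a count of 0 allows. The gene 1700042O10Rik overlaps Ddc in the annotation. Within Gch1 there were 4 in replicate 1 and 1 in replicate 2, so that the limit for a count of 0 does not apply. The annotated genes Gm49134 and Gm18811 overlap Gch1. No control sample exists for these counts. The 7 opposite reads in Ddc stand beside 13 reads on its own strand in the same library, and whether they belong to the overlapping gene was not tested.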

How the results depend on the processing

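The 5 called members stayed called and kept their direction under scaling by total counts, DESeq2 size factors, no filter, a minimum of 50 reads and annotated models only. Removing the length trend moved Th to -0.19 and Qdpr to -0.36, which no longer passed, reversed Pnmt to 0.73, reversed the uncalled Ddc to 0.21, and brought Maoa past the threshold at -1.46. Ddc also reversed, to 0.68, with annotated models only, and Maoa, to 0.37, with total counts; neither passed. The level of Ddc fell to 8.42 CPM with annotated models only. The number of genes called between the libraries was 6497, and 4037 with at least 50 reads or 3889 with the length trend removed. Genes with changed isoform use numbered 1359, and 186 with annotated models only or 723 with spliced models only, where the Gch1 difference reversed to -0.71 percentage points, still uncalled. Called introns numbered 661, and 408 with spliced models only; Th introns 2, 5, 6 and 8 stayed called there and with at least 20 reads. The mean share of Gch1 reads with the first junction was 98.4%, and 98.9% with annotated and incomplete matches only. The other alternatives left values within the spread of the libraries or on their side of the threshold.

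Each mean rests on 2 libraries that differ in the lengths they hold, so the difference between them cannot be assigned to the animals. Shares of Ddc rest on 13 and 7 reads, and those of Qdpr in replicate 2 on 15. Leaving out either library leaves the other library's value, which is given beside each mean. No paired analysis was possible because there is a single group.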

Other observations

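The junction chains of each gene were compared between the libraries, without a count over all genes. Whether the sharing differs from that of other genes was therefore not tested. Th had 41 distinct junction chains in replicate 1 and 40 in replicate 2, of which 12 were shared, 29.3% and 30.0% of each. The shared chains held 917 of the 980 reads of replicate 1 and 256 of the 310 of replicate 2. Dbh had 7 and 17 chains with 2 shared, and Gch1 2 and 7 with 2 shared. Pnmt had 8 and 3 chains with 2 shared, Qdpr 6 and 4 with 2 shared, and Ddc 7 and 1 with 1 shared. Maoa had 4 and 3 chains, of which 1 was shared, and that chain held 30 and 28 reads.

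Over all 12 Th introns together, 57 of 11413 passages of a read over an intron kept it in replicate 1 (0.499%) and 315 of 3525 in replicate 2 (8.94%). The same sums were 0 of 329 and 0 of 1561 for the 5 introns of Gch1, and 0 of 296 and 7 of 2169 (0.323%) for the 11 introns of Dbh. They were 0 of 845 and 4 of 84 (4.76%) for Qdpr, 7 of 578 (1.21%) and 4 of 94 (4.26%) for Pnmt, and 0 of 447 and 3 of 434 (0.691%) for Maoa. Ddc kept no intron in 54 and 98 passages.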
